A study of Mus musculus with 6 samples.

Results

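Postn, Fbln2, Spp1, Vcam1, Thy1 and S100a6 are genes commonly read as markers of fibroblasts and other stromal cells, and embryonic fibroblasts served as feeders for one of the cultures measured here. The genes were chosen by name: every probe, control spots aside, whose file entry led to one of the 6 symbols was kept. This gave 6 of 12323 named genes and 7 of 41006 probes, with 2 probes for Thy1 and 1 for each of the other genes. All 7 were among the 39403 probes tested. A probe was tested if, in at least 1 culture, both arrays had its sample signal marked well above background by the scanner software, Feature Extraction.

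RNA was measured on 6 two-colour oligonucleotide arrays, 2 for each of 3 mouse cultures. MAPC (multipotent adult progenitor cells) are adherent cells from bone marrow. The 2 MAPC arrays carry the same clone, labelled high in Oct4, raised from marrow cultures that were depleted of CD45+ and Ter119+ cells at 4 weeks and seeded at 10 cells per well. It was past 80 population doublings, in 5% oxygen and 2% serum with EGF and PDGF-BB at 10 ng/mL and LIF at 1000 units/mL. ESC are C57BL/6 embryonic stem cells maintained with 15% serum and LIF on irradiated mouse embryonic fibroblasts, and they were plated free of feeders before RNA collection. NS are neurospheres, floating cultures of neural progenitors, from C57BL/6 forebrain at E11.5, grown in bFGF and EGF at 20 ng/mL. Each sample, in Cy3, was hybridised against one Cy5 reference RNA pooled from 11 mouse cell lines, embryonic fibroblasts among them, and dyes were not swapped. No array holds fibroblasts or feeder cells on their own. Culture conditions and cell type differ together between the groups and cannot be told apart.

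Fibroblasts build and anchor the extracellular matrix. Postn encodes periostin, a secreted matrix protein that binds collagen and integrins, and Fbln2 encodes fibulin 2, a glycoprotein of basement membranes and elastic fibres. Spp1 encodes osteopontin, a secreted phosphoprotein bound by integrins and CD44, best known from bone and macrophages. Vcam1 is a surface adhesion molecule that holds cells carrying the alpha 4 integrin, as marrow stroma does with blood progenitors. Thy1 (CD90) is a lipid-anchored surface protein of fibroblasts, neurons and, in the mouse, thymocytes. S100a6 (calcyclin) is a calcium-binding protein of the cytoplasm that binds annexins and is abundant in fibroblasts.

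The probes are 60 bases long, and the first 30 bases of each are given as the array file writes them, since every value below is a reading of one of these sequences. Capitals mark AATAAA, the usual polyadenylation signal.
Postn: aaaccattcttcaggtataaagagaattac
Fbln2: cactcctcaactatggctacagctgacatt
Spp1: ttctcagttcagtggatatatgtatgtaga
Vcam1: gtttgagaagagacattatttataaaaccc
Thy1 probe 1: gcgcgaatcccatgagctccAATAAAagta
Thy1 probe 2: ccctccatgcataccactagctgtcatttt
S100a6: gccttggctttgatctacaatgaagctctg
In the annotation used for names, Postn, Vcam1 and S100a6 lie on chromosome 3, Spp1 on 5, Fbln2 on 6 and Thy1 on 9. AATAAA, searched over all 60 bases on the strand the file writes, occurs in 2 of the 7 probes. In Thy1 probe 1 it spans bases 21 to 26, and in the S100a6 probe bases 32 to 37, past the printed part. Of all 41006 probes, 6.98% hold it. The 2 Thy1 probes share no run longer than 5 bases. GC content ran from 35.0% for Postn and Vcam1 to 45.0% for Fbln2 and both Thy1 probes, against a median of 43.3% over all probes. Where the probes lie in their transcripts was not analysed here.

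Marker genes of ESC and NS stood where the labels place them. Pou5f1, Nr0b1 and Zfp42, genes of pluripotent cells, were highest in ESC. Nes, Ptprz1 and Hes5, genes of neural progenitors, were highest in NS, with Zfp42 measured on NS replicate 2 alone. Sox17 and Srgn were highest in MAPC, but the labels do not place them there and earlier results of these data were known. Pou5f1 encodes Oct4, which the labels call high in MAPC. Its log2 ratio of sample to reference was 0.90 and 1.33 in MAPC, 3.38 and 2.90 in ESC, and -0.25 and -0.29 in NS. Between 91.9% and 99.6% of probe spots on an array were marked well above background in the sample channel, so that mark alone is weak evidence of a transcript. Reference spots at the scanner's ceiling numbered 239 to 284 per array, and the Spp1 and S100a6 spots were among them on all 6 arrays.

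Postn separated the 3 cultures most widely. Its log2 ratio of sample to reference was -3.68 and -3.78 on the MAPC arrays, 3.06 and 2.32 on the ESC arrays, and -1.09 and -0.99 on the NS arrays. ESC stood highest, NS between and MAPC lowest, with no overlap. In such bulk RNA, fewer cells of a type and less RNA per cell cannot be told apart. In the sample channel the background-subtracted intensity was 8.03 and 9.99 in MAPC, 8032 and 4415 in ESC, and 319 and 359 in NS. The MAPC signals were not well above background on either array, and 93.6% and 90.1% of the 314 negative control spots of those arrays were dimmer. MAPC therefore has only a bound. The bound was taken from the background-corrected sample channel, normalised between arrays (Aquantile). There Postn was at least 80.6-fold lower in MAPC than in ESC and at least 5.78-fold lower than in NS. The bound sets the bright group's mean against the dim probe's own level, or against the dimmest probe marked well above background on that array where that was higher. For Postn it was the probe's own level. In log2 ratio, a separate measure, MAPC minus ESC was -6.42 (SE 0.20, limma adjusted p = 2.42e-07). MAPC minus NS was -2.69 (SE 0.20, adjusted p = 1.69e-05). Postn was 13.3-fold higher in ESC than in NS (3.73, SE 0.20, adjusted p = 3.52e-06). Without background correction the MAPC differences in log2 ratio shrank to -4.18 from ESC and -1.02 from NS. Both still passed the threshold of 0.05 on the adjusted p, but the folds given as bounds hold only with the correction.

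The other matrix gene, Fbln2, was low in MAPC alone. The log2 ratios were -3.16 and -3.41 in MAPC, -0.10 and 0.07 in ESC, and 0.08 and -0.10 in NS. Both MAPC arrays lay under all the others, while ESC and NS overlapped. Fbln2 was 9.68-fold lower in MAPC than in ESC (-3.28, SE 0.10, adjusted p = 2.44e-07) and 9.73-fold lower than in NS (-3.28, adjusted p = 1.42e-07). No difference between ESC and NS passed the threshold (-0.01, SE 0.10, adjusted p = 0.970). The MAPC signal was well above background on both arrays, at intensities of 642 and 486, against 6963 and 8779 in ESC and 6262 and 7033 in NS.

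**Figure D1:**
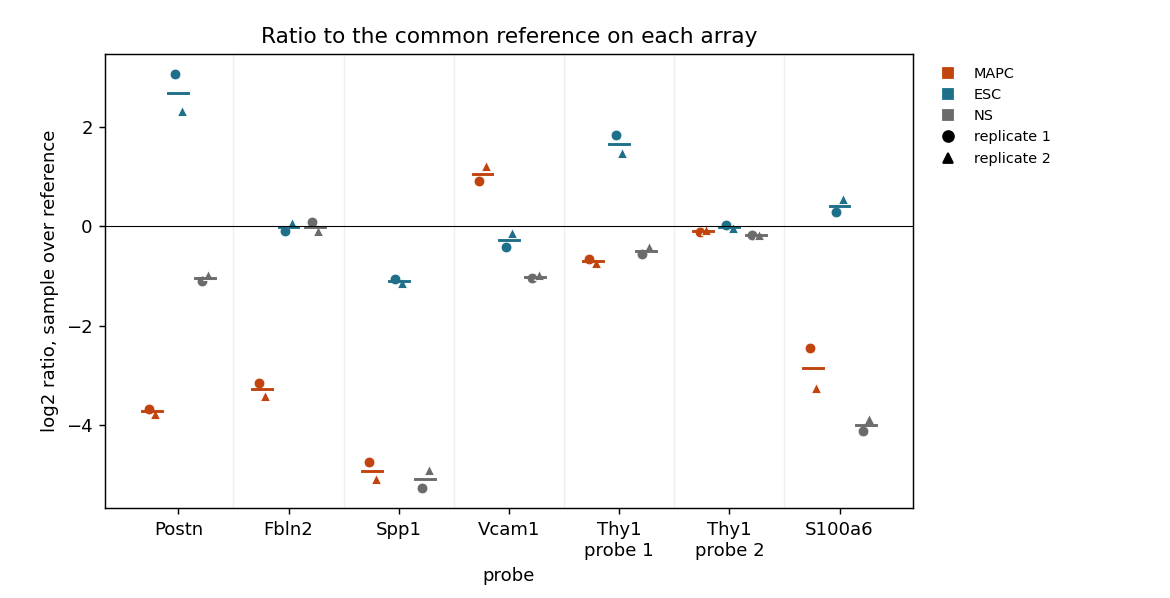
Log2 ratio of sample to reference (vertical axis) for the 7 probes, with MAPC, ESC and NS side by side. Circles are replicate 1, triangles replicate 2 and bars the mean of 2 arrays. ESC lies highest for Postn, Spp1, Thy1 probe 1 and S100a6, MAPC highest for Vcam1 and lowest for Fbln2.

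Spp1 was high in ESC alone. Its sample-channel intensity was 1316 and 812 in MAPC, 21128 and 17976 in ESC, and 769 and 949 in NS. The ESC arrays stood apart, and MAPC and NS overlapped. The log2 ratios were -4.76 and -5.08 in MAPC, -1.06 and -1.15 in ESC, and -5.27 and -4.92 in NS. The reference signal was saturated on every array, so each ratio is an upper bound, and the sample channel alone is given beside it. MAPC minus ESC was -3.82 in log2 ratio (SE 0.14, adjusted p = 4.33e-07) and -3.88 in the sample channel. ESC minus NS was 3.99 in log2 ratio (adjusted p = 3.50e-07) and 4.24 in the sample channel. Between MAPC and NS no difference passed (0.17, SE 0.14, adjusted p = 0.367). Spp1 is also a bone gene, and of 6 osteoblast genes tested limma called 0 between MAPC and ESC (1 at an unadjusted p under 0.05). In ESC against NS 1 was called, the bone matrix gene Bglap, which was lower (-0.59). Of all probes, 16.2% were called higher and 22.2% lower in MAPC than in ESC, and 20.4% and 18.2% in ESC than in NS. The summed sample level of these 6, in multiples of each array's 75th percentile, was 24.2 to 24.5 in MAPC, 14.6 to 18.4 in ESC and 21.5 on both NS arrays.

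Vcam1 ran the other way and was highest in MAPC. Its log2 ratios were 0.92 and 1.21 in MAPC, -0.43 and -0.14 in ESC, and -1.05 and -0.99 in NS, and no groups overlapped. MAPC exceeded ESC 2.55-fold (1.35, SE 0.12, adjusted p = 5.37e-05) and NS 4.23-fold (2.08, SE 0.12, adjusted p = 3.28e-06). ESC exceeded NS 1.66-fold (0.73, SE 0.12, adjusted p = 0.00155). Without background correction the 3 differences were 0.89, 1.20 and 0.31, and that of ESC from NS no longer passed (adjusted p = 0.0549). Of the 7 probes, Vcam1 alone was called higher in MAPC than in both other cultures.

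Thy1 gave different answers on its 2 probes. Probe 1 had log2 ratios of -0.67 and -0.74 in MAPC, 1.84 and 1.48 in ESC, and -0.56 and -0.42 in NS. ESC stood clear of both other groups, which lay close together without overlap. On probe 1 MAPC was 5.15-fold lower than ESC (-2.36, SE 0.11, adjusted p = 1.79e-06), and ESC was 4.44-fold higher than NS (2.15, adjusted p = 2.72e-06). MAPC and NS did not differ past the threshold (-0.21, SE 0.11, adjusted p = 0.172), though they did when the ESC arrays were left out of the estimate of spread (adjusted p = 0.0393). Probe 1 was dim outside ESC, at intensities of 35.0 and 39.8 in MAPC, 427 and 419 in ESC, and 48.9 and 49.4 in NS. Without background correction its differences were -1.16 for MAPC from ESC and 1.10 for ESC from NS, both past the threshold.

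Thy1 probe 2, the brighter on average, scarcely moved in log2 ratio. Its log2 ratios were -0.11 and -0.08 in MAPC, 0.03 and -0.04 in ESC, and -0.17 and -0.18 in NS. The groups did not overlap but all lay close to 0. MAPC did not differ past the threshold from ESC (-0.09, SE 0.05, adjusted p = 0.256) or NS (0.08, SE 0.05, adjusted p = 0.261). ESC against NS passed by a small margin (0.17, SE 0.05, adjusted p = 0.0388), and over the alternatives the adjusted p ran from 0.0231 to 0.190. The difference in log2 ratio between probe 1 and probe 2 was -0.56 and -0.66 in MAPC, 1.81 and 1.52 in ESC, and -0.39 and -0.25 in NS. In the sample channel of probe 2 MAPC minus ESC was -0.59 (limma adjusted p = 0.0648) and ESC minus NS 0.45 (adjusted p = 0.156). After Aquantile normalisation of that channel MAPC minus ESC was -0.55 and passed (adjusted p = 0.0142). Both probes thus had their highest mean in ESC, with a larger excess on probe 1. The size of the Thy1 difference is not settled here. Genes marking other cells that carry Thy1 were counted in ESC against NS, where 20.4% of all probes were called higher and 18.2% lower. Of 6 T lymphocyte genes 2 were called higher in ESC (Lck 0.98, Cd5 0.56) and the others were not called. Of 6 neuron genes 2 were higher and 4 lower. The microtubule genes Stmn2 (3.69) and Tubb3 (0.99) were the neuron genes higher in ESC, and the growth cone gene Gap43 (-1.50) was lowest of the other 4, which lay between -1.50 and -0.26.

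S100a6 was brightest in ESC, lower in MAPC and lowest in NS. Its sample-channel intensity was 7608 and 3369 in MAPC, 57192 and 65148 in ESC, and 1808 and 2057 in NS. The log2 ratios were -2.46 and -3.25 in MAPC, 0.29 and 0.55 in ESC, and -4.12 and -3.89 in NS. No groups overlapped. The reference was saturated on all 6 arrays, and the sample channel on ESC replicate 2, whose signal is a lower bound. MAPC minus ESC was -3.27 in log2 ratio (SE 0.23, adjusted p = 1.61e-05) and -3.27 in the sample channel. Both values rest on saturated spots, and that of the sample channel is a minimum size. MAPC exceeded NS by 1.15 (SE 0.23, adjusted p = 0.00435), or 1.41 in the sample channel. That difference was 0.76 without MAPC replicate 1 and 1.55 without MAPC replicate 2, past the threshold in both cases. ESC exceeded NS by 4.43 (SE 0.23, adjusted p = 2.82e-06), or 4.67 in the sample channel, again a minimum size.

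**Figure D2:**
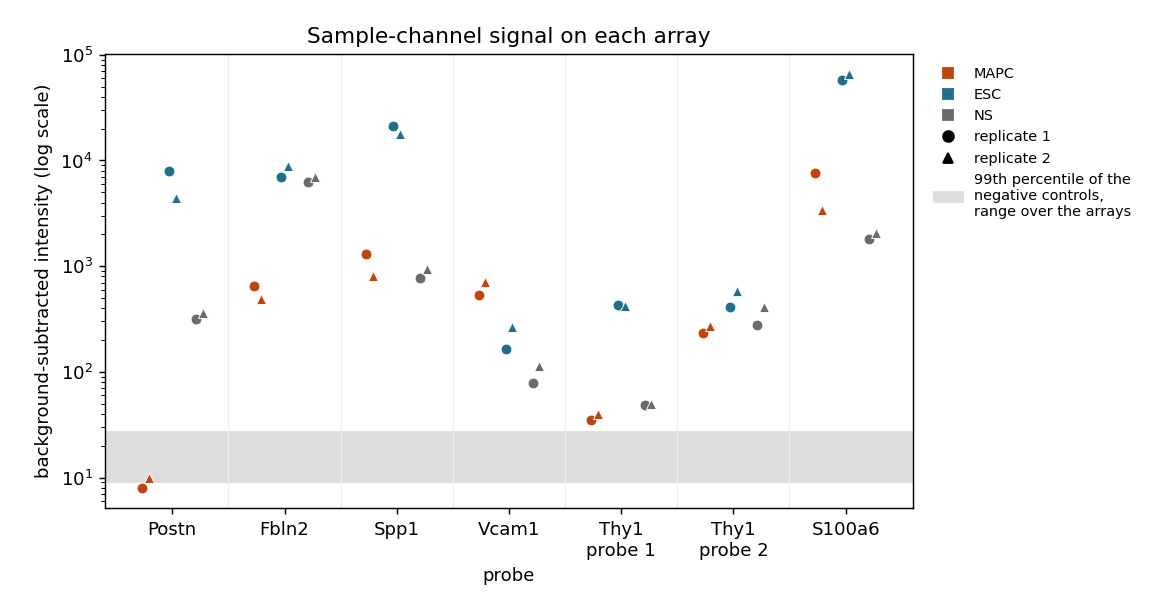
Background-subtracted sample-channel intensity (vertical log axis) of the 7 probes on every array. The grey band is the range over the arrays of the 99th percentile of the negative controls. Postn in MAPC, at 8.03 and 9.99, lies within or just under the band, and every other point lies above it.

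Counted together, 1 of the 7 probes was higher and 5 were lower in MAPC than in ESC at an adjusted p under 0.05. Over all 39388 probes with a value in that comparison, 16.2% were called higher and 22.2% lower. Against NS, 2 were higher in MAPC and 2 lower, where 21.8% of all probes were called higher and 22.3% lower. In ESC against NS, 6 were higher and 0 lower (the remaining probe, Fbln2, had an unadjusted p of 0.944), where 20.4% of all probes were called higher and 18.2% lower. The groups did not overlap in any of the 16 differences called, nor in 3 of the 5 not called. The share of all probes without overlap was not analysed here, so nothing is read from these counts. Each pair of comparisons shares the arrays of 1 culture. Images of all replicate 1 arrays were extracted on one day and those of all replicate 2 arrays on another. All 16 differences had the same sign within each replicate number. Groups without overlap fix that outcome, so it is no separate check on the day.

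The ESC arrays were next compared with each other. Both came from cells kept on feeders, so feeder RNA present equally on both would leave no gap. A gap can also come from any other difference between the replicates, so feeder RNA itself was not tested. Over all tested probes the median absolute difference between ESC replicates 1 and 2 was 0.0727 log2 units, with a 95th percentile of 0.265. Over the 7 probes the median was 0.267, which is the value of S100a6 and thus rests on saturated spots. It was 0.284 over the 5 probes left without Spp1 and S100a6, whose spots were saturated. The corresponding medians over the 7 probes were 0.247 for the MAPC arrays and 0.134 for the NS arrays, against 0.0658 and 0.0606 over all probes. Without Spp1 and S100a6 they were 0.102 and 0.104. In log2 ratio the median gap thus exceeded that of all probes in all 3 cultures, with or without Spp1 and S100a6. Over the 5 probes without them it was widest in ESC. The sample channel alone did not show this throughout. In NS the gaps of Postn, Fbln2, Spp1, Thy1 probe 1 and S100a6 were there wider than only 2.39% to 41.7% of probes. Those of Vcam1 and Thy1 probe 2 were wider than 61.6% and 62.5%. In ESC the 7 sample-channel gaps ranked from 0.2% for Fbln2 to 98.9% for Postn.

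Postn had the widest gap between the ESC arrays among the probes measured free of saturation. It was higher on ESC replicate 1 by 0.74 log2 units, or 1.67-fold, a gap wider than that of 99.7% of tested probes. In the sample channel alone the gap was 1.14, wider than 98.9% of probes. Under 8 ways of processing it ran from 0.70 to 1.14, always higher on replicate 1. Thy1 probe 1 was also higher on replicate 1, by 0.35 in log2 ratio, wider than 97.7% of probes. In the sample channel its gap was 0.39, wider than 70.9%. Vcam1 was higher on replicate 2, by -0.28 in log2 ratio, wider than 95.9% of probes. In the sample channel its gap was -0.32, wider than 61.1%. For these 2 probes the rank among all probes depended on the channel, and for the rest the gap itself did. Spp1, with its saturated reference, was higher on replicate 1 by 0.10 in log2 ratio and by 0.57 in the sample channel, a gap wider than 86.0% of probes. Fbln2 lay at -0.17 in log2 ratio and 0.00 in the sample channel, and Thy1 probe 2 at 0.06 and -0.14. S100a6 lay at -0.27 in log2 ratio and 0.18 in the sample channel. Neither is a measured gap, since its reference was saturated on both arrays and its sample signal on replicate 2. Postn and Vcam1 thus lay on opposite sides in both channels.

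The widest replicate gap of any of the 7 probes lay in MAPC, and its cause was not tested. S100a6 was higher on MAPC replicate 1 by 0.79 log2 units, or 1.73-fold, wider than 99.9% of tested probes. In the sample channel, away from the saturated reference, that gap was 1.19, wider than 98.8% of probes. Spp1 was also higher there, by 0.32 in log2 ratio and 0.71 in the sample channel. In NS the widest gap in log2 ratio was that of Spp1 (-0.35), but in the sample channel, where nothing was saturated, it was -0.01.

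**Figure D3:**
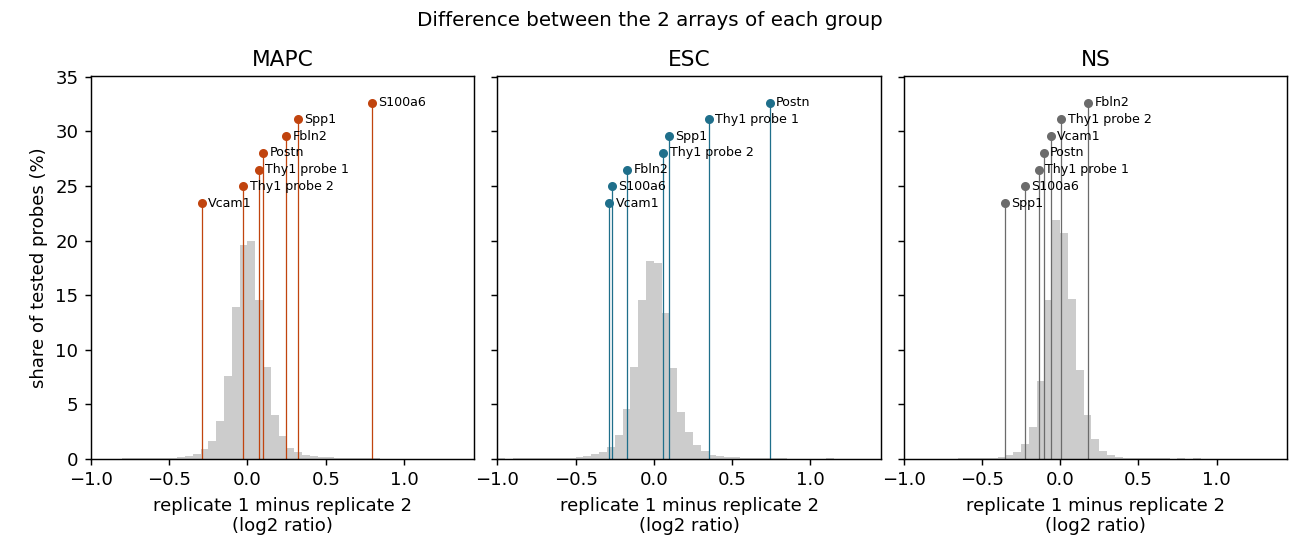
Replicate 1 minus replicate 2 in log2 ratio (horizontal axis) for MAPC, ESC and NS. Grey bars give the share of tested probes per bin, and labelled lines mark the 7 probes at heights chosen for legibility. Postn stands apart on the ESC arrays at 0.74 and S100a6 on the MAPC arrays at 0.79.

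A wider list of 40 fibroblast and matrix genes, none of them among the 6, gave the background for these readings, and 27 had a named probe and were tested. In MAPC 24 of the 27 were lower than in ESC, 1 was higher and 2 were not called, with a median difference of -1.38 against 0.01 over all probes. Of all probes, 22.2% were called lower and 16.2% higher. The largest differences belonged to Fstl1, a secreted follistatin-like protein (-3.97), Bgn, the matrix proteoglycan biglycan (-3.50), and the mesenchymal cadherin Cdh11 (-3.45). Sparc, a collagen-binding matrix protein, was the gene higher in MAPC (2.11). Against NS, 15 were lower in MAPC, 3 were higher and 9 were not called, with a median of -0.26. Of all probes, 22.3% were called lower and 21.8% higher there. Without background correction 11 of the 27 were called in place of 18. Fstl1 (-3.52) and the proteoglycan Dcn (-2.26) were lower, and Sparc was higher (3.04).

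ESC exceeded NS for 23 of the 27 genes, with 3 lower and 1 not called, and a median of 0.97. Of all probes, 20.4% were called higher and 18.2% lower. Bgn (3.35), the smooth muscle actin-binding gene Tagln (3.00) and the collagen crosslinker Lox (2.91) differed most. Lower in ESC were the filament gene Vim (-1.49), the proteoglycan Lum (-1.06) and the elastin gene Eln (-0.31). Like Postn, Spp1, Thy1 probe 1 and S100a6, 22 of the 27 genes of the list were called higher in ESC than in both other cultures, as were 11.3% of all 39385 probes with both differences. These ESC measurements come from cells kept on fibroblasts until they were plated free of feeders. The part of carried-over feeder RNA in them was not tested, and the series has no feeder array to set beside them.

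The sample level was also summed over the 27 genes. In multiples of each array's 75th percentile it was 157 to 197 in MAPC, 129 to 140 in ESC and 146 to 179 in NS. This sum weights the brightest probes, and intensities of different probes share no scale, so no comparison between the cultures was drawn from it. Of the 27, between 26 and 27 were well above background on the MAPC arrays, 27 on both ESC arrays, and between 26 and 27 on the NS arrays.

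Between the 2 ESC arrays the list split in log2 ratio. Its median difference there was 0.02, and 17 of 27 genes were higher on replicate 1. In the sample channel alone Eln, Mfap5, Twist1 and Vim were higher on replicate 2 and all other genes of the list on replicate 1. The median sample-channel difference over all tested probes was -9.02e-05 log2 units. At the upper end in log2 ratio stood Mgp, an inhibitor of calcification (0.76), the small matrix protein Dpt (0.71), Lum (0.67) and Dcn (0.65). They were chosen after their values were seen. Each of these gaps was wider than 99.6% of tested probes, as was that of Postn, and each was on the same side as Postn. Over 8 ways of processing the gaps of Mgp, Dpt, Lum and Dcn stayed above 0, with the lowest at 0.24 for Dpt. The fibrillar collagen genes Col1a1 (-0.04) and Col1a2 (0.01) were level between the same arrays in log2 ratio only. In the sample channel alone they were higher on replicate 1 by 0.30 and 0.32, wider than 56.7% and 60.9% of probes. Both were higher in ESC than in NS, by 2.16 and 1.89 in log2 ratio. Vim (-0.52) and the transcription factor gene Twist1 (-0.36) were higher on replicate 2 in log2 ratio. In the sample channel alone their gaps shrank to -0.08 and -0.17. After Aquantile normalisation of that channel they were -0.44 and -0.12. Over the 8 ways of processing Vim ran from -0.60 to -0.08 and Twist1 from -0.42 to -0.12. Both thus stayed higher on replicate 2, but the size of the gap depended on the channel. Pluripotency genes, which mark the stem cells themselves, had a median difference of 0.08 in log2 ratio, with 9 of 12 higher on replicate 1. A part of feeder carry-over in the replicate 1 excess of Postn, Mgp, Dpt, Lum and Dcn was not tested.

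**Figure D4:**
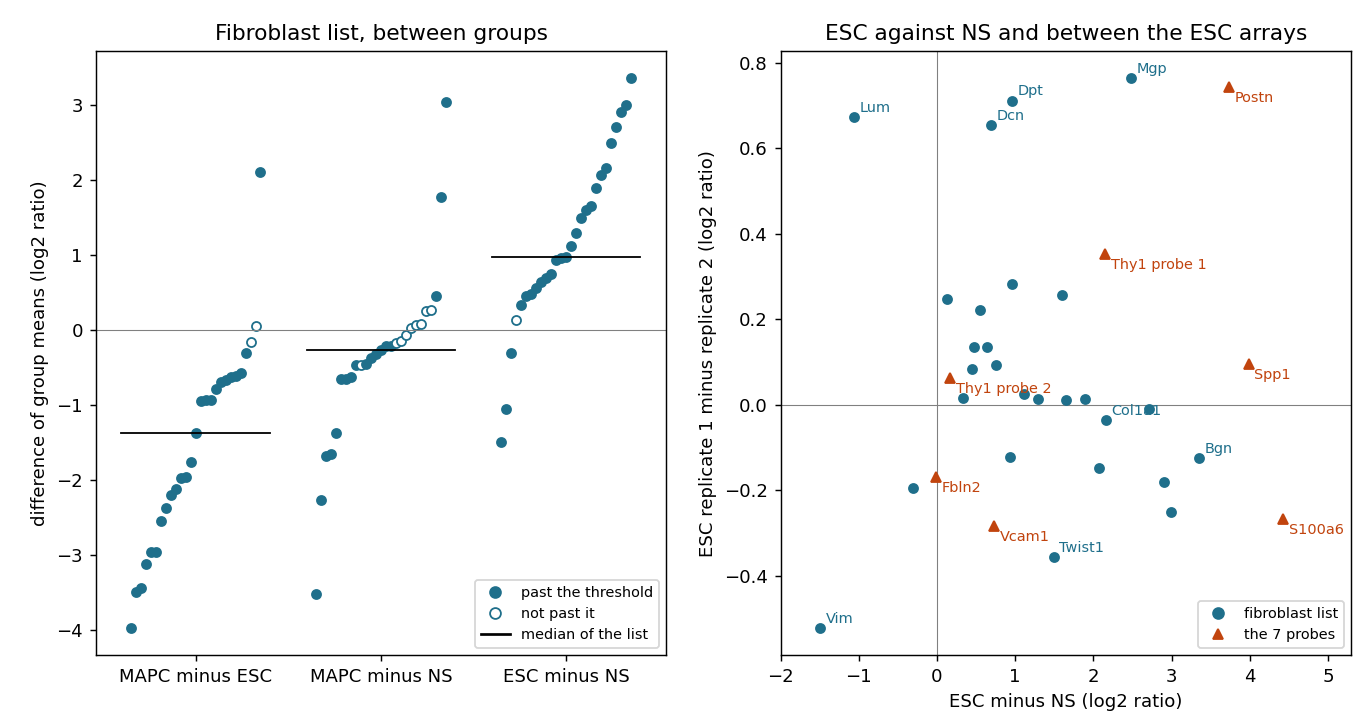
Left, difference of group means in log2 ratio for the 27 fibroblast list genes in the 3 comparisons, filled where past the threshold, with the list's median as a line (-1.38, -0.26 and 0.97). Right, ESC minus NS (horizontal) against ESC replicate 1 minus replicate 2 (vertical) for the list genes (circles) and the 7 probes (triangles), in log2 ratio. Postn, Mgp, Dpt, Lum and Dcn lie above 0.6 on the vertical axis.

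Relatives of the 6 genes were called in both directions, as were 16.2% to 22.3% of all probes per direction and comparison. Of 17 tested (fibulins, S100 proteins, immunoglobulin-like adhesion molecules and the bone phosphoprotein family), 3 were higher and 8 lower in MAPC than in ESC. The fibulin Efemp1 (-3.40), the periostin relative Tgfbi (-1.15) and S100a16 (-0.75) differed most. Against NS, 6 were higher and 3 lower in MAPC. The adhesion molecule Icam1, which like Vcam1 binds leukocyte integrins, was higher (1.96), and S100a16 (-1.65) and Tgfbi (-1.06) were lower. In ESC against NS, 5 were higher and 2 lower, led by Efemp1 (2.73), Icam1 (2.61) and S100a11 (1.05). The median differences of this list were -0.11, 0.07 and 0.13 in those 3 comparisons.

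Genes for receptors and binding partners, and leukocyte genes, were counted the same way, beside 16.2% to 22.3% of all probes per direction and comparison. Of 16 tested, 1 was higher and 7 were lower in MAPC than in ESC, led by the matrix metalloproteinase Mmp3 (-3.87), which cuts osteopontin, the periostin-binding matrix gene Tnc (-3.70) and the integrin chain Itgb7 (-2.34). Against NS, 2 were higher in MAPC, the S100 partners Anxa2 (1.33) and Anxa11 (1.32), and 4 were lower, led by Tnc (-3.44). In ESC against NS, 6 were higher and 2 lower, led by Mmp3 (3.06), Itgb7 (2.39) and Anxa11 (2.37). The medians were -0.09, 0.03 and 0.12. Leukocyte genes, checked because macrophages also carry Spp1, had 4 of 8 lower in MAPC than in ESC and 4 not called, led by the lysozyme gene Lyz2 (-2.98), Fcgr3 (-0.73) and Adgre1 (-0.68, measured on 5 arrays). In ESC 4 of 8 were higher than in NS and 4 not called, led by Lyz2 (2.98), Fcgr3 (1.07) and Adgre1 (0.48). Their summed sample level was 7.49 to 7.78 in MAPC, 9.72 to 9.96 in ESC and 5.75 to 6.64 in NS, and their part in the Spp1 difference was not tested.

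Other named genes with the same profile over the 6 arrays were found by the smallest root mean square difference after centring, among 11948 named genes. Postn had no close match, with Col18a1 nearest at 0.472 log2 units, then Stmn2 at 0.552 and Lefty1 at 0.652. Closest to Fbln2 were H2-T22 (0.147), Ier5 (0.154) and Etv5 (0.167). Spint2 (0.139), Zbtb32 (0.167) and Tdrd12 (0.177) came closest to Spp1. For Vcam1 they were Creld2 (0.108), Wdr1 (0.120) and Msx2 (0.122), and for S100a6 Grb7 (0.228), Zfp296 (0.338) and Dppa4 (0.356). Thy1 probe 2, nearly flat, was nearest to 4933402J07Rik (0.0126), Tnfrsf23 (0.0186) and P2rx5 (0.0197).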

How the data were processed

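Per the file headers, Agilent Feature Extraction (version A.7.5.1) made the deposited scanner files, which give the mean and local background intensity of each spot in both dyes, with marks for spots above background, saturated or outlying. The authors' series matrix holds log10 values that repeat the processed ratios, with its centring unknown and column medians of 2.95 to 2.97, and was used only as an alternative. Here intensities were corrected with normexp (offset 50) and normalised within arrays by loess with the R package limma (3.58.1, R 4.3.3). Values are log2 ratios of sample (Cy3) over reference (Cy5). Control and outlier spots were left out, spots of one probe were averaged, and the brightest probe stood for a list gene.

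Of 41006 probes, 15294 were named through a RefSeq accession, 15 through a symbol and 72 through an older symbol, and 25625 stayed unnamed. One limma fit of all 6 arrays (lmFit and eBayes, 3 residual degrees of freedom, two-sided) gave the 3 comparisons, with Benjamini-Hochberg adjustment over all tested probes and a threshold of 0.05. It was checked on simulated data. No permutation of 2 against 2 arrays can give a p below 0.333. The labels call the arrays of a group biological replicates, and for MAPC the p-values cover the spread within 1 clone. The number of arrays limits the precision. Members and gene lists were chosen with earlier results of these data known. The text names every member probe, the up to 3 genes with the largest differences past the threshold wherever a list is counted in a comparison, and the 3 genes nearest each member's brightest probe. Columns of per-sample values without a sample numbered 0.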

Additional observations from a re-analysis of the deposited data

How the results depend on the processing

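The 21 differences of the 7 probes were recomputed 354 times in all, by other background corrections, normalisations, filters and subsets of arrays, and 326 of these kept direction and side of the threshold, 12 fell short of it, 4, all of Thy1, newly passed, and 12 changed sign with neither value past it. Of those that fell short, 11 were Thy1 probe 2 in ESC against NS and 1 was Vcam1 in the same comparison. No called difference changed direction. Fbln2 in ESC against NS, -0.01 in the report, was 0.00690 by the processed signals, 0.00698 by the series matrix, 0.18 by median centring, 0.0359 in the sample channel after Aquantile, 0.0534 in the sample channel alone, and -0.0973 to 0.0823 with an array left out. In MAPC against NS, Thy1 probe 1 was 0.0803 after Aquantile, Thy1 probe 2 was -0.00534 by median centring, -0.11 after Aquantile and -0.14 in the sample channel alone, and Spp1 was -0.00748 to 0.35 with an array left out. The cause was not tested. The count of the 7 probes called ran from 5 to 7 for MAPC against ESC, from 3 to 5 for MAPC against NS and from 5 to 6 for ESC against NS. The count of fibroblast list genes called in MAPC against NS was 11 without background correction and 18 with it, and the cause was not tested. Leaving out each array in turn gave 14 to 20 there, 23 to 25 for MAPC against ESC and 24 to 27 for ESC against NS. The median gap between the ESC arrays over the 7 probes ran from 0.166 to 0.323, including 0.227 without S100a6 and 0.284 without S100a6 and Spp1, both chosen after seeing the data.

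Replicate numbers coincide with the image extraction day, so the replicate block and the day block are 1 fit. With it the counts of the 7 probes called were 6, 4 and 6, as without it, and those of the list 25, 18 and 26. Replicate differences correlated over probes at 0.0976 between MAPC and ESC, 0.157 between MAPC and NS and 0.208 between ESC and NS, and the labels do not say what a number shares. Postn in MAPC lies at the level of negative controls, the Spp1 and S100a6 reference spots are saturated, and 13 of 40 fibroblast genes had no named probe and are not analysed here.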
